A study of Homo sapiens with 4 samples.

Results

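The messenger RNAs of 10 proteoglycan core proteins were followed in SAS, a cell line derived from a squamous carcinoma of the human tongue. The 10 genes, chosen by name from a count table of 35767 genes, were SPOCK1, the syndecans SDC1, SDC2, SDC3 and SDC4, the glypican GPC1, the basement membrane proteoglycans AGRN and HSPG2, and the matrix proteoglycans VCAN and BGN. Per the labels, 2 libraries came from cells given a control siRNA (siControl, genotype WT) and 2 from cells given an siRNA against NAT10 (siNAT10), the RNA cytidine acetyltransferase. The genotype label reads NAT10 knockdown in siNAT10 replicate 1 and NAT11 knockdown in siNAT10 replicate 2. The labels give no dose, time after transfection or number of siRNA sequences, and they call the samples biological replicates without naming separate cultures. Every error given here thus rests on differences among these libraries, which may be technical variation.

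A proteoglycan is a core protein that carries long, sulfated sugar chains (glycosaminoglycans) on serine residues that are followed by glycine. Heparan sulfate chains bind growth factors and hand them to their receptors, while chondroitin and dermatan sulfate chains fill and space the matrix. In squamous epithelium, syndecans sit across the plasma membrane, glypicans are held on it by a lipid anchor, and agrin and perlecan lie in the basement membrane. Testican-1, the product of SPOCK1, is a secreted, calcium-binding relative of SPARC that carries both kinds of chain.

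The core proteins were compared by their coding sequences, taken from GENCODE release 29 (GRCh38) as the longest complete coding sequence of each gene. SPOCK1 is shown first because it had the largest difference of the 10. Of its 439 codons, only 2 pairs encode serine followed by glycine, and they lie 5 codons apart. The stretch around them covers coding bases 1117 to 1197 and spans an exon junction on the minus strand of chromosome 5 (chr5:136978777-136979344). Capitals mark the serine-glycine codon pairs.
SPOCK1: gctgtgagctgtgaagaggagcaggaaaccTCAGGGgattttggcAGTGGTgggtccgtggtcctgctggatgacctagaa
The other members had more such pairs for their length. Serine-glycine codon pairs numbered 5 in SDC1, 3 in SDC2, 8 in SDC3, 4 in SDC4, 6 in GPC1, 23 in AGRN, 53 in HSPG2, 28 in VCAN and 5 in BGN. Per 1000 codons, SPOCK1 stood at 4.56 pairs, next to a median of 4.85 over 19484 coding genes and above 46.85% of them. The syndecans stood at 14.9 (SDC2) to 20.2 (SDC4), above 96.2% to 98.8% of coding genes. The other 5 stood at 8.25 (VCAN) to 13.6 (BGN), above 78.3% to 94.95%. A codon pair is a description of the sequence and does not show that a chain is attached there.

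Syndecans also share a short cytoplasmic end that PDZ-domain proteins such as syntenin (SDCBP) hold. The last 63 coding bases, stop codon included, are shown for 3 syndecans, all within the final coding exon on the minus strand (SDC1 at chr2:20202766-20202828, SDC3 at chr1:30873211-30873273, SDC4 at chr20:45327264-45327326). Capitals mark the last 12 bases before the stop codon.
SDC1: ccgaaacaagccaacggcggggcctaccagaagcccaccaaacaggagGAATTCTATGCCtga
SDC3: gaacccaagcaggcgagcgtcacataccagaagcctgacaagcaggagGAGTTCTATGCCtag
SDC4: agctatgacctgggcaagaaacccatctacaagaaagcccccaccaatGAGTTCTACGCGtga
SDC1 and SDC3 were identical at 58.7% of the 63 bases, and SDC4 was identical to each of them at 39.7%. In the capital bases, 11 of 12 were shared by SDC1 and SDC3, 9 of 12 by SDC1 and SDC4, and 10 of 12 by SDC3 and SDC4.

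The libraries held 30794757 to 36341785 counts, and 3 counts corresponded to 0.0787 to 0.102 CPM (each count relative to the TMM-scaled library size). NAT10 itself was measured at 240.2 CPM and 231 CPM in siControl, replicate 1 first, and at 253 CPM and 248 CPM in siNAT10 (log2 fold change 0.09 ± 0.06, edgeR adjusted p = 0.293), so the libraries are called by their labels and the knockdown that the labels name is not seen in these counts. Epithelial markers summed to 5307 to 5692 CPM, with DSP, KRT8 and KRT17 highest, although KRT5 had 0.0808 to 0.202 CPM and TP63 0.474 to 0.969 CPM, so these defining markers of basal squamous cells were near 0. CDH1, another marker of this list, was also low, at 0.779 to 1.29 CPM. Of the 10 epithelial markers, 9 were tested in the edgeR fit. Lower at an adjusted p under 0.05 were EPCAM (mean 7.87 to 3.97 CPM), KRT14 (4.08 to 1.91 CPM), KRT17 (843 to 564 CPM) and DSP (log2 fold change -0.24), higher were KRT8 (1666 to 2004 CPM) and SFN (236 to 265 CPM), and KRT18, CDH1 and TP63 did not pass. Their part in the results was not tested. Fibroblast markers summed to 33.4 to 40.1 CPM, mostly COL1A1, with COL3A1, PDGFRA and LUM at a mean of at most 3 counts a library. Endothelial markers summed to 7.75 to 10.01 CPM, and immune markers to 52.9 to 57.3 CPM, mostly CD68, with PTPRC and FCER1G likewise near 0.

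Of the 10 genes, 8 had enough counts to be tested, and VCAN and BGN did not. Over all 20098 genes tested, 40.4% passed an adjusted p of 0.05 (edgeR), 19.7% being higher and 20.7% being lower in siNAT10-labelled libraries. When scaling used library totals alone, 2689 genes passed higher and 5601 lower, against 3951 and 4169 here, and the median gene moved to -0.12 on the log2 scale. Among the members 2 passed higher (SDC1 and SDC2), 3 passed lower (SPOCK1, SDC4 and HSPG2) and 3 did not pass (SDC3, GPC1 and AGRN). Their median log2 fold change was -0.16, beside -0.01 over all genes tested. The members were chosen with results of this same comparison known, so these counts and the values that follow are a description, and no p-value is given for a member. Log2 fold changes are the siNAT10 level minus the siControl level, ± standard error (SE, n = 2 per group). In bulk RNA, fewer cells that express a gene and less RNA per cell cannot be told apart.

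SPOCK1 (chromosome 5, 136975298 to 137598379, GRCh38, minus strand) showed the largest difference of the members. In siControl, replicate 1 had 53.3 CPM from 2031 counts and replicate 2 had 53.8 CPM from 1998 counts. In siNAT10, replicate 1 had 7.51 CPM from 260 counts and replicate 2 had 7.41 CPM from 219 counts. The groups lay far apart, and the higher library exceeded the lower by a factor of 1.009 in siControl and 1.013 in siNAT10. With 260 and 219 counts, such closeness in siNAT10 is not a measure of precision. The mean was 7.17-fold lower in the libraries labelled siNAT10 (log2 fold change -2.84 ± 0.09, 95% interval from -3.04 to -2.65). Of the 20098 genes tested, SPOCK1 ranked 95 from the most negative log2 fold change. No other row of the table overlapped its exons.

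**Figure D1:**
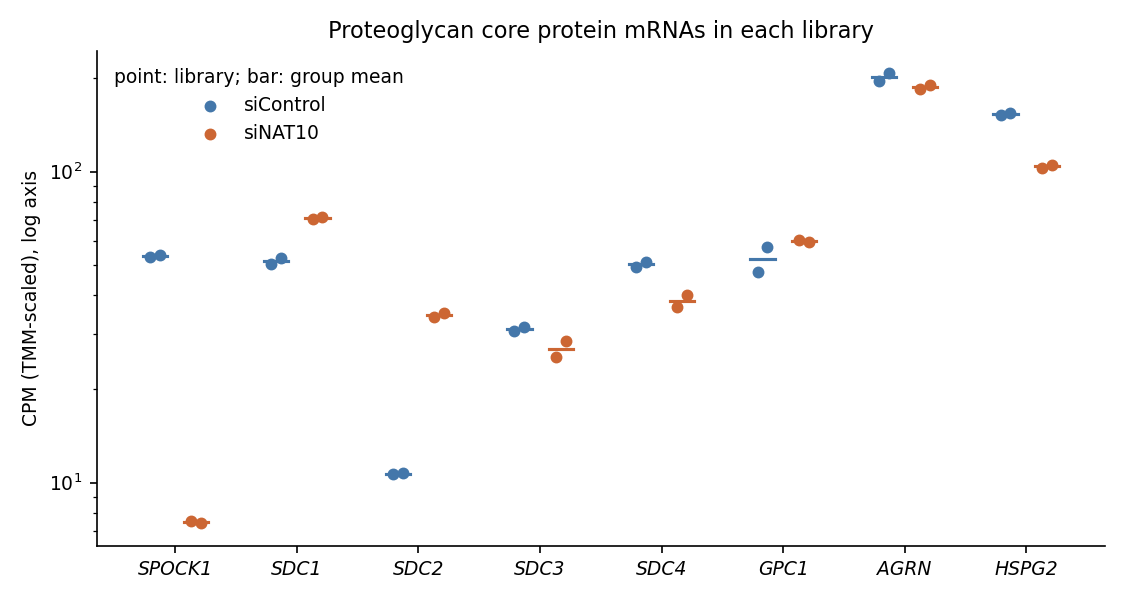
Level of each of the 8 tested core protein genes in each library, in TMM-scaled CPM on a log axis; points are libraries and bars are means of 2 libraries. The 2 siControl points of SPOCK1 lie near 53.5 CPM and the 2 siNAT10 points near 7.46 CPM, while SDC2 lies the other way, near 10.7 and 34.5 CPM.

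The related testican genes were measured beside it. SPOCK2 had 8.11 and 8.69 CPM in the siControl pair against 5.46 and 4.67 CPM in those labelled siNAT10, a fall (log2 fold change -0.73 ± 0.15, edgeR adjusted p = 5.36e-04). SPOCK3 had no count in either siControl library and a mean of 0.0677 CPM in the other group, under the level of 3 counts. Both detected testican genes thus stood lower in the same libraries.

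The genes whose 4 values most resembled those of SPOCK1 were searched among 4559 genes without an overlapping exon whose higher group reached 10 CPM, each gene centred on its own mean of log2 CPM. Among the 5 nearest were COL17A1, a hemidesmosome collagen (root mean square distance 0.168), COL6A2, a chain of collagen VI (0.176), OASL, an interferon-induced gene (0.183), and INHBE, an activin subunit (0.207). With 4 libraries in 2 groups, this likeness is mainly a fold change of like size.

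Syndecans are the transmembrane proteoglycans, and the 4 members of the family did not move together. SDC2 (chromosome 8, 96493351 to 96611780), best known from mesenchymal cells, stood at 10.65 CPM and 10.71 CPM in the siControl pair and at 34.0 CPM and 35.1 CPM in the siNAT10 pair (replicate 1 before replicate 2, here and below). The groups were separated by more than a factor of 3. They hardly varied within, which with 2 libraries each is not a measure of precision. The log2 fold change was 1.69 ± 0.10 (95% interval from 1.49 to 1.89), 3.23-fold higher in the libraries labelled siNAT10, and 194 of the 20098 tested genes had a log2 fold change at least as high.

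SDC1 (chromosome 2, 20200797 to 20225433), the main syndecan of stratified epithelium, had 50.7 and 52.9 CPM in the siControl pair against 70.4 and 71.4 CPM in those labelled siNAT10. Both siNAT10 libraries lay above both siControl libraries. The log2 fold change was 0.45 ± 0.07, 1.37-fold higher.

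SDC4 (chromosome 20, 45325288 to 45348424), the syndecan of focal adhesions, went the other way. It had 49.2 and 51.4 CPM in the siControl pair against 36.7 and 40.3 CPM in those labelled siNAT10, with no overlap between groups. The log2 fold change was -0.39 ± 0.08, 1.31-fold lower. SDC3 (chromosome 1, 30869467 to 30908761), known from the nervous system, had 30.9 and 31.6 CPM in the siControl pair against 25.5 and 28.5 CPM in those labelled siNAT10. Its log2 fold change of -0.21 ± 0.09 did not pass. It was -0.13 without siNAT10 replicate 1 and -0.32 with libraries scaled by their totals.

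The mixture of syndecan mRNAs differed between groups. CPM per kilobase of exon put the 4 genes on a common scale, on which they summed to 39.6 and 41.2 in siControl, against 44.7 and 47.0 in those labelled siNAT10. SDC4 made up 47.6% ± 0.15 (SD, n = 2) of that sum in siControl and 32.1% ± 0.95 in the libraries labelled siNAT10. SDC1 made up 35.6% ± 0.11 and 43.0% ± 1.08, and became the largest part on this scale. The lead of SDC4 in siControl came from the division by exon length (2613 bases for SDC4, 3595 for SDC1). In CPM, SDC1 already stood slightly above SDC4 there, at 50.7 and 52.9 against 49.2 and 51.4. SDC2 went from 5.83% ± 0.14 to 16.6% ± 0.23, and SDC3 from 10.9% ± 0.12 to 8.32% ± 0.37. The level of SDC1 per kilobase was 0.748 times that of SDC4 in both siControl libraries, and 1.39 and 1.29 times in siNAT10 replicates 1 and 2.

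**Figure D2:**
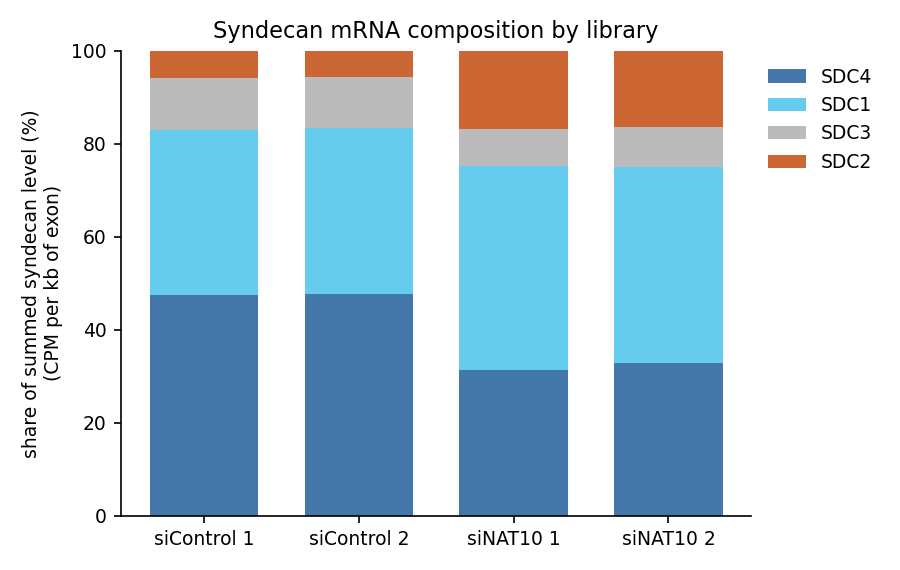
Share of each syndecan in the summed syndecan level of each library, in percent, from CPM per kilobase of exon. On this scale SDC4 (dark blue) is the largest part in the siControl libraries, at 47.5% and 47.7%. SDC1 (light blue) is the largest in the siNAT10 libraries, at 43.8% and 42.2%, and SDC2 (orange) is wider in both siNAT10 libraries.

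Among the basement membrane proteoglycans, perlecan differed and agrin did not pass. HSPG2 (chromosome 1, 21822245 to 21937297), which encodes perlecan, had 152 and 154 CPM in the siControl pair against 103 and 105 CPM in those labelled siNAT10. Each group was tight and the groups stood clear of each other. The log2 fold change was -0.56 ± 0.07 (95% interval from -0.69 to -0.42), 1.47-fold lower. LDLRAD2 overlaps its exons on the opposite strand, and it too was lower, with 29.2 and 33.0 CPM in siControl and 22.4 and 21.1 CPM in the other group (log2 fold change -0.51). Its part in the value of HSPG2 was not tested.

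AGRN (chromosome 1, 1020123 to 1056118) encodes agrin, which binds laminin and dystroglycan and is also the organiser of the neuromuscular junction. It had the highest CPM of the 10 genes, 195 and 207 CPM in the siControl pair against 184 and 190.2 CPM in those labelled siNAT10. The groups did not overlap, but they lay close, and the log2 fold change of -0.10 ± 0.07 had a 95% interval from -0.24 to 0.03. It was -0.06 without siControl replicate 2 and -0.22 with libraries scaled by their totals. RP11-54O7.14 overlaps AGRN on the same strand with 124 to 157 counts. Per kilobase, agrin mRNA was 2.11 and 2.21 times that of perlecan in siControl, and 2.94 and 2.97 times in the libraries labelled siNAT10.

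GPC1 (chromosome 2, 240435671 to 240468078), a lipid-anchored heparan sulfate proteoglycan that binds fibroblast growth factors, had 47.4 and 57.1 CPM in the siControl pair against 60.1 and 59.4 CPM in those labelled siNAT10. The siControl libraries differed by a factor of 1.20, the widest spread within a group among the 8 tested members. The log2 fold change of 0.19 ± 0.08 did not pass. It was 0.06 without siControl replicate 1, 0.33 without siControl replicate 2 and 0.08 with libraries scaled by their totals, so its size depended on the siControl library and the scaling.

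The matrix proteoglycans of stroma were hardly detected. VCAN (chromosome 5, 83471465 to 83582303), the large chondroitin sulfate proteoglycan that binds hyaluronan, had 6 and 10 counts in the siControl libraries and 4 and 2 in those labelled siNAT10. BGN (chromosome X, 153494939 to 153509554), the small leucine-rich proteoglycan biglycan, had 0 and 2 counts in the siControl libraries, where 0 counts allow up to 0.0787 CPM, and 4 and 6 in those labelled siNAT10. At this depth no difference is drawn from either gene. All 8 tested members had groups whose CPM did not overlap, where 69.5% of all genes tested did so.

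**Figure D3:**
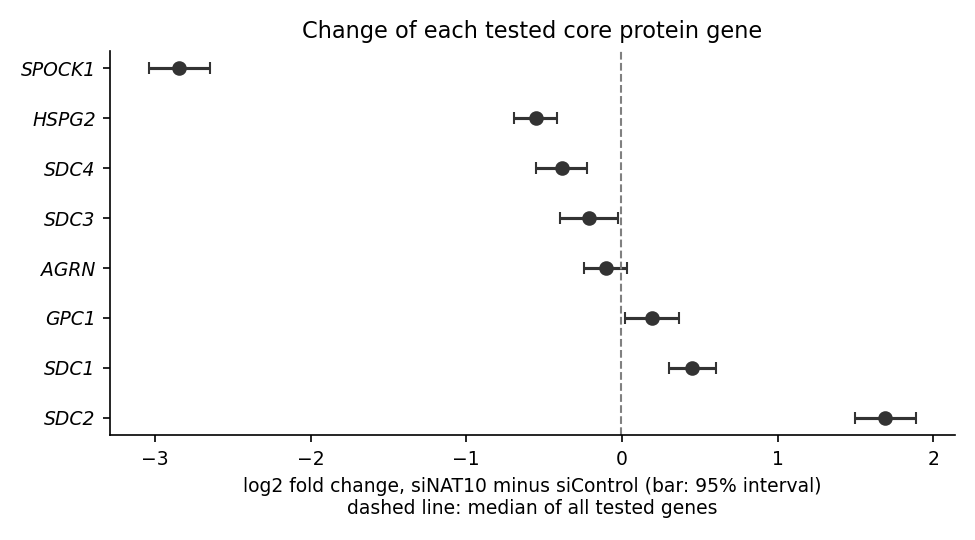
Log2 fold change of the 8 tested core protein genes, siNAT10 minus siControl, with 95% intervals from the fit over all genes; the dashed line is the median of all genes tested, -0.01. SPOCK1 at -2.84 and SDC2 at 1.69 lie far from the other 6, which lie between -0.56 and 0.45.

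Set on the scale per kilobase of exon, the order of the core proteins was not the same in the groups. In siControl, SDC4 (19.3 ± 0.59, SD, n = 2) and AGRN (18.7 ± 0.79) stood highest and within their spread of each other, followed by SDC1 (14.4 ± 0.44). HSPG2 (8.65 ± 0.07), SPOCK1 (8.60 ± 0.06) and GPC1 (8.02 ± 1.05) came next and did not differ beyond their spread. SDC3 (4.42 ± 0.07) and SDC2 (2.36 ± 0.01) were the lowest of the tested genes. In the libraries labelled siNAT10 the order was SDC1 (19.7 ± 0.21), AGRN (17.4 ± 0.39), SDC4 (14.7 ± 0.96), GPC1 (9.17 ± 0.07), SDC2 (7.62 ± 0.17), HSPG2 (5.89 ± 0.09), SDC3 (3.82 ± 0.31) and SPOCK1 (1.20 ± 0.01). SPOCK1 thus stood above 76.6% of all tested genes in siControl and above 34.5% in the other group, and SDC2 above 48.4% and 74.5%. Summed over the 10 genes, the level was 84.4 ± 3.11 in siControl and 79.6 ± 2.06 in the libraries labelled siNAT10. That difference was close to the spread, and 2 libraries against 2 cannot reach an exact permutation p under 0.05.

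Upstream sequence was matched in RefSeq (GRCh38.p14) for 7 of the 10 genes. The 100 bases before the RefSeq start are shown for SDC4 and HSPG2, both lower in the libraries labelled siNAT10. For SDC3, VCAN, BGN and 1 of 2 SDC1 starts, the RefSeq start differs from the gene end in the deposited table such that the window lies wholly or partly inside the gene. Both strands were searched for TATAAA (in 4.99% of 35116 promoter windows of the same length), GGGCGG (the GC box, in 31.3%), TGANTCA (2.75%), CACGTG (3.43%) and GGAATG (4.67%). Capitals mark every match, and all matches shown are of GGGCGG or its reverse complement CCGCCC. The windows lie at chr20:45348425-45348524 and chr1:21937311-21937410, both on the minus strand.
SDC4: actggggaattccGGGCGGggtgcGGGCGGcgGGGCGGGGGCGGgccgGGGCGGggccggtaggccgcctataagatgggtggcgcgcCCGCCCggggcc
HSPG2: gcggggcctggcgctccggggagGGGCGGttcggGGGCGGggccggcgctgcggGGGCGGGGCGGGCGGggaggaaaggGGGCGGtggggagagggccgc
SDC4 and HSPG2 each held 6 matches of the GC box, SDC3 held 4, BGN 2, GPC1 1 and VCAN 0, while the SDC1 windows at 2 annotated starts held 1 each. No matched member held any of the other 4 motifs. The G and C content was 83% for SDC4 and 87% for HSPG2, beside a median of 60% over all windows. A match describes these letters only.

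Other core proteins and the enzymes that make, trim and bind the chains were taken from 10 lists. Of their 159 genes, 118 were tested, and 22 rose and 35 fell in siNAT10-labelled libraries, which is 48.3% beside 40.4% of all genes. Their median log2 fold change was -0.04. All adjusted p-values that follow are from edgeR over 20098 genes. Where a gene on the opposite strand overlaps a named gene, their reads cannot be told apart without a known strand setting. For list genes named by the rule given under processing, the overlapping gene is named where it had more than 15 counts in a library. For other list genes given with values, overlaps are not reported. Genes named with values although they did not pass were chosen after their values were seen.

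Among 9 tested other cell-surface proteoglycans, 3 fell and 1 rose, with a median log2 fold change of -0.13. CSPG4, the transmembrane chondroitin sulfate proteoglycan NG2, fell from 75.2 and 73.8 CPM to 43.2 and 48.1 CPM (-0.71 ± 0.08, edgeR adjusted p = 3.65e-07), and CTD-2026K11.1 overlaps it with 70 and 63 counts in siControl and 39 and 45 in the other group. TGFBR3 (betaglycan), a co-receptor of TGF-beta, fell from a mean of 49.8 to 32.5 CPM (-0.61 ± 0.08). CD44, the hyaluronan receptor, fell from 334 to 272 CPM (-0.30 ± 0.07, adjusted p = 1.62e-03, and 0.0773 without siNAT10 replicate 1), and RP1-68D18.4 overlaps it with 785 and 811 counts in siControl and 664 and 616 in the other group. The riser was GPC4, named after its values were seen, which had 0.0525 and 0.0808 CPM in siControl and 0.462 and 0.406 CPM in the other group, so close to the level of 3 counts that no ratio is given. Without siNAT10 replicate 1, 2 genes of the list passed.

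Among 11 tested genes of the list of other secreted and matrix proteoglycans, 4 fell and none rose, 36.4% beside 40.4% of all genes. The median of -0.62 was the value of HAPLN3, a gene of low level (means 0.529 and 0.343 CPM) that did not pass. Besides SPOCK2, the fallers were BCAN (brevican, from 4.33 and 5.19 CPM to 2.25 and 2.74 CPM), PRELP (from 1.47 to 0.618 CPM) and CHAD (from 3.31 to 2.05 CPM), named after their values were seen. COL18A1, the collagen that carries heparan sulfate in basement membranes, had a mean of 48.7 CPM in siControl and 53.1 CPM in the other group and did not pass (0.13). TSKU, a small leucine-rich protein of this list, had means of 11.5 and 11.4 CPM and did not pass. The list held 2 passing genes without siNAT10 replicate 1 and 2 with DESeq2.

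Among 12 tested genes that supply activated sugars and sulfate, 4 rose and 2 fell, with a median of 0.15. With library totals alone 2 rose and 2 fell, and without siControl replicate 2, 5 rose and 0 fell. PAPSS2, which makes the sulfate donor PAPS, rose from 22.9 and 22.4 CPM to 41.8 and 39.7 CPM (log2 fold change 0.85 ± 0.08, edgeR adjusted p = 1.57e-07), and RP11-57C13.3 overlaps it on the opposite strand with 322 and 385 counts in siControl and 500 and 329 in the other group. IMPAD1, a Golgi phosphatase that clears the product of sulfation, rose by 0.35 ± 0.08. UGDH, which makes UDP-glucuronate, rose by 0.28 ± 0.07 (adjusted p = 3.23e-03, but 0.0618 without siNAT10 replicate 2 and 0.061 with library totals alone), and UGDH-AS1 overlaps it with 20 to 47 counts. SLC35D1, a transporter of UDP-sugars, fell by 0.53 on the log2 scale (adjusted p = 7.5e-03, and 0.0795 without siControl replicate 2). Without siNAT10 replicate 2, 3 genes of the list passed.

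Genes of the step that joins the chain to the serine went in opposite directions. XYLT1, a xylosyltransferase that places the sugar next to the core protein, fell from 7.87 and 8.83 CPM in siControl to 1.73 and 1.83 CPM in the libraries labelled siNAT10. This was 4.69-fold lower (-2.23 ± 0.18, edgeR adjusted p = 8.34e-09), and it was between -2.34 and -2.14 in all 11 alternatives. Its relative XYLT2 was far more abundant, with 62.7 and 78.0 CPM in siControl and 61.7 and 58.6 CPM in the other group. Its difference of -0.23 ± 0.09 (adjusted p = 0.0446) was lost in 5 of 11 alternatives, with an adjusted p of 0.621 without siControl replicate 2, 0.0654 without siNAT10 replicate 1 and 0.226 without siNAT10 replicate 2. FAM20B, the kinase that phosphorylates this xylose, rose from 33.1 to 55.6 CPM (0.75 ± 0.08, adjusted p = 2.19e-07). PXYLP1, the phosphatase that removes that phosphate, rose from 5.10 to 7.23 CPM (0.50 ± 0.15, adjusted p = 9.81e-03, and 0.0637 without siNAT10 replicate 1). Of the 7 genes of this step, 2 rose and 2 fell. Those that fell encode xylosyltransferases, and those that rose encode the kinase and the phosphatase. B4GALT7 (log2 fold change 0.20), B3GALT6 (-0.38) and B3GAT3 (0.15) did not pass.

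Of 11 tested genes that build and sulfate heparan sulfate, 3 rose and 1 fell, with a median of 0.02. With library totals alone 2 rose and 3 fell, and without siNAT10 replicate 1, 2 rose and 2 fell, so the balance of this list depends on both. EXT1, a subunit of the chain polymerase, rose from 13.7 and 14.0 CPM to 18.9 and 22.1 CPM (log2 fold change 0.56 ± 0.11, edgeR adjusted p = 2.96e-04), while its partner EXT2 had means of 43.9 and 40.1 CPM (-0.13) and did not pass. NDST1, which exchanges acetyl for sulfate on the chain, rose by 0.50 ± 0.10, and HS6ST3, a 6-O-sulfotransferase, fell from 25.1 to 18.6 CPM (-0.43 ± 0.10). GLCE, the epimerase, rose by 0.34 ± 0.12 (adjusted p = 0.0284). That call was lost in 5 of 11 alternatives, with an adjusted p of 0.153 without siControl replicate 2, 0.0669 without siNAT10 replicate 1 and 0.104 without siNAT10 replicate 2.

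Of 16 tested genes of chondroitin and dermatan sulfate, 7 fell and 1 rose, with a median of -0.38, and with library totals alone 10 fell and 1 rose. A difference between this list and the heparan sulfate list was not tested. CSGALNACT2, which starts and extends chondroitin chains, fell from 94.3 and 86.2 CPM to 65.0 and 58.0 CPM (log2 fold change -0.55 ± 0.08, edgeR adjusted p = 9.26e-06). The sulfotransferase genes CHST7 and CHST11 fell (log2 fold changes -0.65 ± 0.16 and -0.39 ± 0.10; CHST11 adjusted p = 3.21e-03, and 0.0547 without siNAT10 replicate 1). CHST14, the sulfotransferase of dermatan sulfate, was the gene that rose, from 6.72 to 10.4 CPM (0.63 ± 0.13). The largest fall of the list was at a low level, in UST (from 1.29 to 0.212 CPM), named after its values were seen.

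Among 16 tested genes of chain editing and breakdown, 3 fell and 1 rose, 25% beside 40.4% of all genes. SULF2, an extracellular enzyme that strips 6-O-sulfate from heparan sulfate, fell from 35.5 and 33.4 CPM to 17.6 and 18.5 CPM (log2 fold change -0.94 ± 0.09, edgeR adjusted p = 1.1e-07). NCOA3 overlaps SULF2 on the opposite strand with 2205 to 3785 counts and was also lower in both libraries labelled siNAT10, and its part in the value was not tested. CTD-2653D5.1 overlaps SULF2 too, with 47 to 147 counts. HYAL3, a hyaluronidase family gene that shares exons with IFRD2 and NAT6, fell by 0.39 on the log2 scale (adjusted p = 0.0372, and 0.129 without siControl replicate 2 or 0.275 without siNAT10 replicate 2). The list held 2 passing genes without siControl replicate 2 and 2 with DESeq2.

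Of 6 tested hyaluronan genes, 3 fell and 1 rose, with a median of -0.71. TMEM2 (now CEMIP2), a cell-surface protein that degrades hyaluronan, fell from 264.4 and 263.8 CPM to 134 and 126.5 CPM (log2 fold change -1.02 ± 0.07, edgeR adjusted p = 4.61e-10). HMMR, a hyaluronan-binding protein of the mitotic spindle, rose from 81.2 to 139 CPM (0.78 ± 0.07), and HMMR-AS1 overlaps it on the opposite strand with 881 and 827 counts in siControl and 1092 and 928 in the other group. The synthase gene HAS2, named after its values were seen, fell from 2.78 to 0.705 CPM (adjusted p = 3.93e-05).

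Partners and cleaving enzymes of syndecans split, with 3 of 13 tested rising and 4 falling. Without siControl replicate 1, 4 rose and 2 fell. The sheddase genes ADAM10 and ADAM17 went opposite ways. ADAM10 rose from 61.6 and 60.6 CPM to 84.9 and 85.0 CPM (log2 fold change 0.48 ± 0.07, edgeR adjusted p = 1.55e-05), and ADAM17 fell from 132 and 130.1 CPM to 89.0 and 87.2 CPM (-0.58 ± 0.07, adjusted p = 1.05e-06), while IAH1 overlaps it with 357 to 483 counts. EZR, which links membrane proteins to actin, rose by 0.23 ± 0.06 (adjusted p = 5.69e-03, and 0.0586 without siNAT10 replicate 1 or 0.13 with library totals alone), and EZR-AS1 overlaps it with 430 to 600 counts. SYNJ2BP, a PDZ protein that shares exons with SYNJ2BP-COX16, fell by 0.24 on the log2 scale (adjusted p = 0.0185, and 0.0795 without siControl replicate 1 or 0.169 without siNAT10 replicate 1). The syntenin gene SDCBP had means of 51.1 and 57.9 CPM and did not pass (0.18). The list held 4 passing genes without siControl replicate 2 and 3 without siNAT10 replicate 1.

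Ligands and receptors of the chains and cores had the highest share of passing genes of the 10 lists, 70.6%, with 6 of 17 tested rising and 6 falling. With library totals alone 5 rose and 8 fell. PTN, a heparin-binding growth factor, fell from 45.9 and 45.0 CPM to 18.2 and 20.7 CPM (log2 fold change -1.23 ± 0.09, edgeR adjusted p = 2.17e-09). FGF2, which needs heparan sulfate to signal, fell from 53.5 and 57.0 CPM to 28.7 and 28.2 CPM (-0.96 ± 0.08), and NUDT6 overlaps it on the opposite strand with 405 to 486 counts. WNT5A, a secreted ligand, rose from 16.9 and 17.2 CPM to 40.2 and 35.95 CPM (1.16 ± 0.09). NID2, a basement membrane linker that binds perlecan, fell from 111 to 68.4 CPM (-0.70 ± 0.07), and its exons overlap C14orf166, which has 1982 to 2259 counts on the opposite strand. DAG1, the agrin and perlecan receptor dystroglycan, named after its values were seen, rose from 148 to 190.4 CPM (0.36, adjusted p = 2.76e-04).

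**Figure D4:**
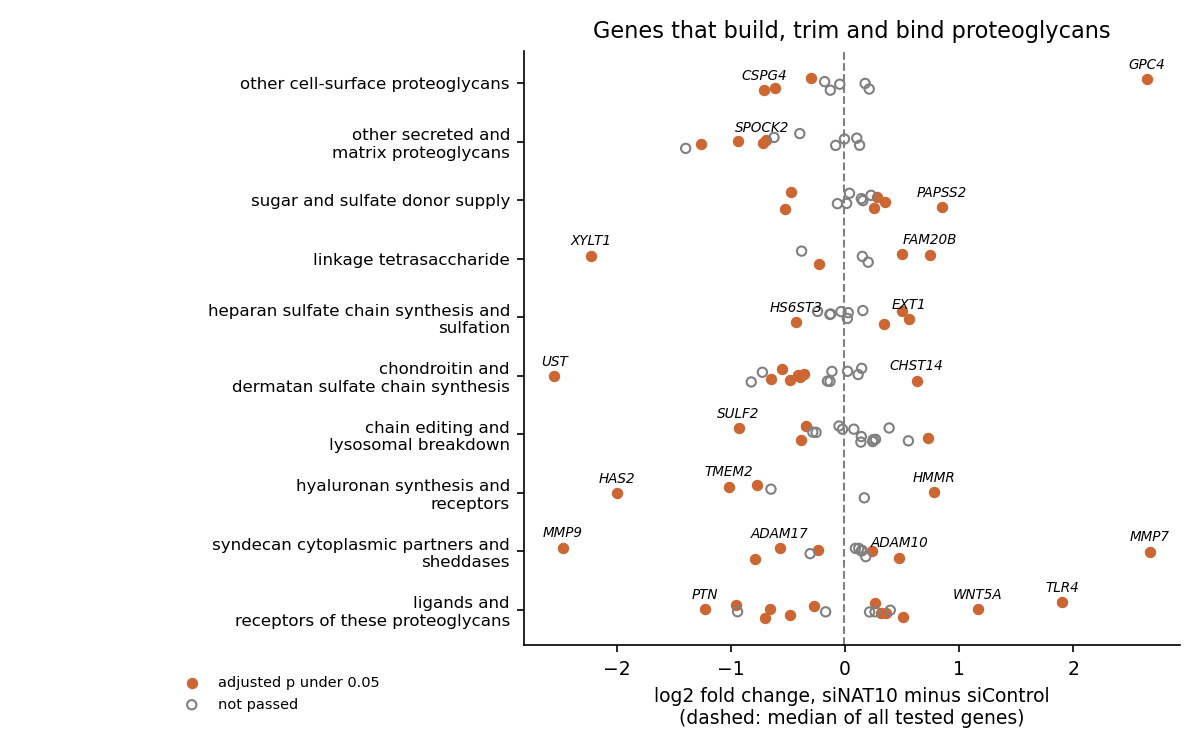
Log2 fold change of every tested gene in the 10 lists, siNAT10 minus siControl; filled points passed an edgeR adjusted p of 0.05, open points did not, vertical scatter within a list only separates points, and the dashed line is the median of all genes tested. XYLT1 at -2.23 lies opposite FAM20B at 0.75 within the linkage step, and the outermost points GPC4, MMP7, MMP9 and UST are genes of low level.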

How the data were processed

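The authors deposited raw counts per gene in 1 table. Per the submitters' processing notes, fastp 0.23.4, STAR 2.5.3a, featureCounts and GRCh38 were used. Per the labels' protocols, RNA was extracted with TRIzol and made into KC Digital mRNA libraries, read as pairs. The annotation release, strand setting and use of molecular identifiers were not given in the sources used here. Gene exon length is another column of the deposited table, summed exon bases, which understates the level per kilobase of genes expressed as short isoforms. All 10 members have the same start and end in GENCODE release 29. Between 72.0% and 73.5% of counts from 1 to 50 were even, as counting both mates of a pair gives, so 1 molecule may count as 2. Intervals and the 3-count floor cover counting error and library spread only.

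Counts were tested in R 4.3.3 with edgeR 4.0.16 (filterByExpr, TMM, glmQLFit with robust shrinkage, glmQLFTest, two-sided, Benjamini-Hochberg over all genes tested, threshold 0.05). Group was the single term of the model, leaving 2 residual degrees of freedom. For the SE and intervals, the shrinkage added degrees of freedom from the other genes. Libraries of a group differed beyond sampling noise (chi-square per degree of freedom 8.68 and 5.14). The fit was also run on simulated counts in which few genes changed, unlike these data, so that run does not vouch for the calls here. The members and lists were chosen with earlier results of these data known. Named genes were NAT10, the members, up to 4 passing genes per list with at least 5 CPM and the smallest adjusted p, and the 5 genes nearest to SPOCK1. Some genes that this rule names are left out here. The 11 alternatives were RLE factors, library totals, no count filter, a minimum of 50 counts in 2 libraries, DESeq2 1.42.0, the replicate block, halved counts, and leaving out each library.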

Additional observations from a re-analysis of the deposited data

How the results depend on the processing

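All 8 tested members kept the direction of their log2 fold change in the 11 alternatives. Of 33 other named genes, 23 kept call and direction in all alternatives that tested them, 10 lost the call in some and none reversed. NAT10, which did not pass, was at -0.024 with library totals alone (adjusted p = 0.799). With totals alone SPOCK1 was at -2.95, SDC2 at 1.58, SDC1 at 0.34, SDC4 at -0.50 and HSPG2 at -0.67, shifted like the median gene. Over all genes, 8120 passed, 6128 to 7795 with 1 library left out and 6256 with DESeq2. With 1 library left out, its group's lone library is assumed to vary like the other group. Lists then held 2 to 4 passing genes (other cell-surface proteoglycans, 4 with all libraries), 2 to 5 (other secreted and matrix proteoglycans, 4), 3 to 5 (donor supply, 6), 2 to 4 (chain editing and breakdown, 4) and 3 to 6 (syndecan partners and sheddases, 7). DESeq2 passed 2 secreted and matrix proteoglycans and 2 genes of chain editing and breakdown. The causes were not tested. The replicate numbers did not pair the libraries (correlation of deviations -0.02 between equal numbers). With the replicate block, 8254 genes passed. Depth limits VCAN, BGN and other genes near 3 counts.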
